A study of Ovis aries with 49 samples.

Results

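Allele-specific expression in fetal sheep lung was compared between overfed and restricted pregnancies. The 8 lung libraries titled as overfed replicates 1 to 4 and restricted replicates 1 to 4 were taken, of 49 samples in all, because rams 1, 3 and 4 sired fetuses on both sides. The ewes were Western white-faced sheep and the rams Dorset. Relative to the energy requirement set by the National Research Council, intake from gestation day 30 was 140% in overfed and 60% in restricted ewes, and lungs were collected at day 135. A further 7 control fetuses, from 4 ewes kept at 100%, served to estimate the spread. Overfed fetuses 1 to 4 were sired by rams 1, 3, 4 and 4, and restricted fetuses 1 to 4 by rams 1, 2, 3 and 4. Each of the 8 fetuses had its own ewe. All crosses ran from Dorset ram to white-faced ewe, so parent of origin and breed of origin cannot be told apart by these libraries alone.

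In most genes both parental copies are transcribed. In imprinted genes marks set in the germ line silence the copy from 1 parent, and many such genes act on fetal growth, the placenta and insulin-like growth factor (IGF) signalling. Unequal reads from the parental copies also arise without imprinting, where a variant near the gene alters the transcription or stability of its own copy. In late gestation the lung thins its walls, lays down elastin and prepares surfactant, a process advanced by glucocorticoids.

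The measurement was the number of RNA reads carrying the father's or the mother's base at single-nucleotide polymorphisms (SNPs) where the ram was homozygous and the fetus heterozygous, called informative SNPs. The deposited lists hold an informative SNP only if it had at least 20.5 reads and at least 70.02% of them on 1 base, so SNPs with balanced expression are not in them. The paternal share is the percent of reads with the father's base, and a SNP lies on the paternal side if this share is above 50%. Single SNPs are written as reference base, position on the chromosome and alternative base, with positions as the lists give them. The sources used here name no genome build.

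The number of autosomal SNPs listed was 1910, 1062, 693 and 1449 in overfed fetuses 1 to 4, and 1168, 1115, 685 and 739 in restricted fetuses 1 to 4. Total reads over the listed SNPs were 37641 to 188161.5 in overfed and 30810.5 to 72162.5 in restricted libraries. Overfed fetus 1 stood apart with the most reads, and the library comparisons are given with and without it. Of the lung epithelium markers, 2 of 15 had a listed SNP in each diet, SLC34A2 (the phosphate transporter of alveolar type II cells) and CLDN18 (a tight junction protein of alveolar epithelium), and their summed reads ranged from 0 to 2807.5 over overfed and from 0 to 606 over restricted fetuses. The surfactant protein genes had no listed SNP. Endothelial markers were listed for 1 of 8 genes in overfed and 3 of 8 in restricted fetuses, and smooth muscle and fibroblast markers for 4 of 9 and 3 of 9. None of the 8 blood or 7 cardiac and skeletal muscle markers had a listed SNP, but at most 2 of either list were informative. The lists thus allow only a partial check of the tissue, and the part of cell composition in the results below was not tested.

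The first comparison was of the percent of each fetus's informative SNPs that were listed. A SNP needed at least 20.5 reads as well as imbalance to be listed, so this percent depends on read depth and on imbalance. The part of read depth in it, in lung and in the other tissues, was not tested. The percent listed was 5.46, 3.39, 2.50 and 4.26 in overfed fetuses 1 to 4, and 3.63, 4.25, 2.31 and 2.62 in restricted fetuses 1 to 4. The groups overlapped, with means of 3.90% ± 1.26 (SD, n = 4) and 3.20% ± 0.898 (SD, n = 4), and the difference of 0.701 points had a two-sided exact permutation p of 0.457, where 4 against 4 can give no p below 0.0286. Within rams the overfed value was higher by 1.83 points for ram 1, by 1.08 for ram 3 and by 0.760 for ram 4. Without overfed fetus 1 the pooled difference was 0.182 points (exact permutation p = 0.886, n = 3 and 4). The 7 control lungs lay between 3.01% and 3.77%. In the same fetuses, the percent listed in lung minus the mean of brain and kidney averaged 1.82 ± 1.28 points (SD, n = 4) in overfed and 0.964 ± 0.911 (SD, n = 4) in restricted fetuses, and this difference of 0.861 points between diets was not larger than the spread (exact permutation p = 0.457). Without overfed fetus 1 it was 0.234 points (exact permutation p = 0.857).

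The balance between parents overlapped between the diets as well. The percent of listed SNPs on the paternal side was 44.9, 43.97, 44.9 and 51.9 in the overfed and 39.6, 43.4, 44.8 and 54.4 in the restricted fetuses. Each diet thus held 1 fetus above 50%. Both were sired by ram 4, as were overfed fetus 3 at 44.9% and 4 control lungs at 41.5% to 44.2%. The means of 46.4% ± 3.69 and 45.6% ± 6.28 (SD, n = 4 each) gave an exact permutation p of 0.771, and the overfed value was 5.23 points higher for ram 1, 0.844 points lower for ram 3 and 6.01 points lower for ram 4. The median reads per listed SNP were 46, 32, 30.5 and 34.5 against 34.5, 37.5, 31 and 30, with a difference of 2.5 reads (exact permutation p = 0.657). Without overfed fetus 1 the difference in median reads was -0.917 (exact permutation p = 0.714) and that in the paternal side 1.35 points (exact permutation p = 0.714). The highest of these values belonged to overfed fetus 1, which also had the highest percent listed.

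**Figure D1:**
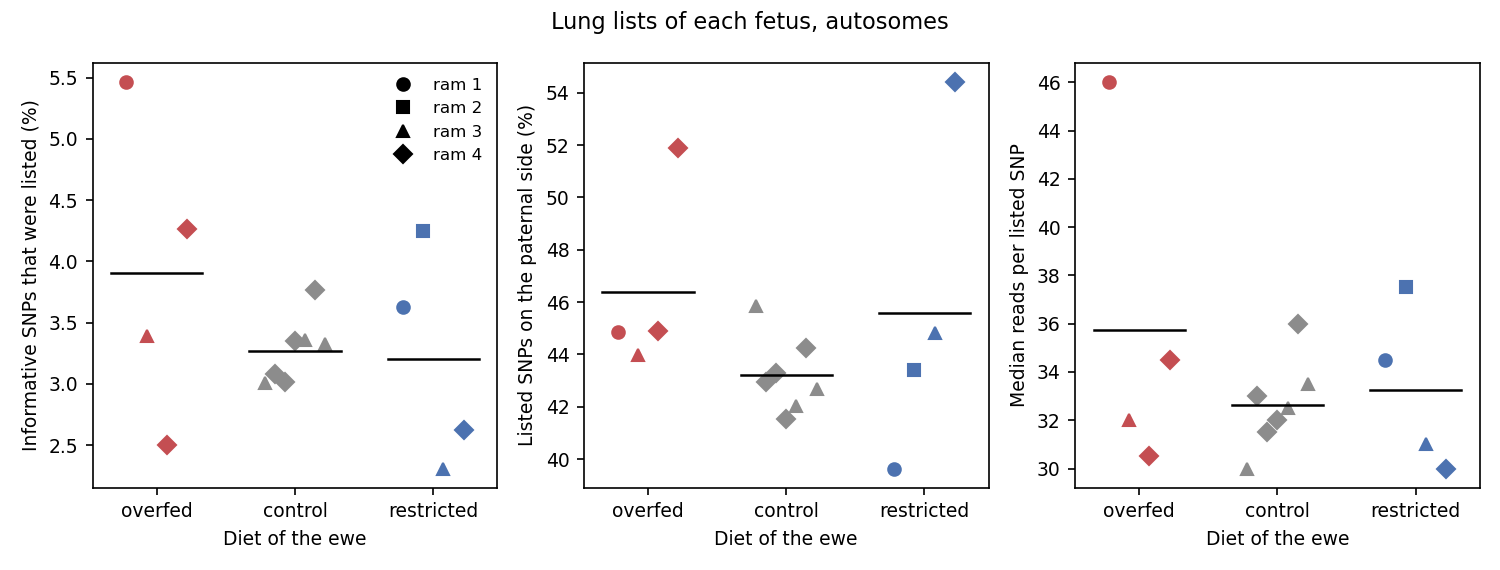
Percent of informative SNPs listed (left), percent of listed SNPs on the paternal side (middle) and median reads per listed SNP (right) for each fetal lung by diet of the ewe, with 1 point per fetus, its shape giving the ram and the black line the group mean. The diets overlap in each panel, and the 2 fetuses above 50% on the paternal side, 1 overfed and 1 restricted, both come from ram 4.

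The next question was whether the same SNP favoured the same parent in both diets. Of 4140 SNPs listed in overfed and 2992 in restricted lungs, 1020 were listed in both, which is 24.6% of the overfed and 34.1% of the restricted SNPs. For 992 of them the father had given the same base in both diets, and 960 (96.8%) favoured the same parent in both diets, 369 the father and 591 the mother. The median difference in paternal share at these SNPs was 0.406 points and the median absolute difference 3.58 points. In 37 further comparisons the father had given the other base, and in 33 of these the favoured parent was opposite, so the same base stayed the more abundant one. A SNP with less than 70.02% of reads on 1 base in a fetus was not listed there, so these counts cover SNPs that were unbalanced in both diets. Imbalance at a SNP shared by the diets thus mostly kept its direction, and where the paternal base changed the abundant base mostly did not.

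Agreement between diets was set beside agreement within a diet for the 28 pairs of the 8 fetuses, each over the SNPs listed in both fetuses with the same paternal base. In the 16 pairs across diets 97.2% to 100% of shared SNPs lay on the same side, with a median of 98.9%. In the 12 pairs within a diet the range was 94.7% to 100% and the median 99.2%. The median absolute difference in share was 3.74 to 4.93 points across diets and 3.60 to 5.998 points within a diet. Fetuses on different diets therefore differed at shared SNPs by about as much as fetuses on the same diet, and pairs share fetuses, so no test was made.

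**Figure D2:**
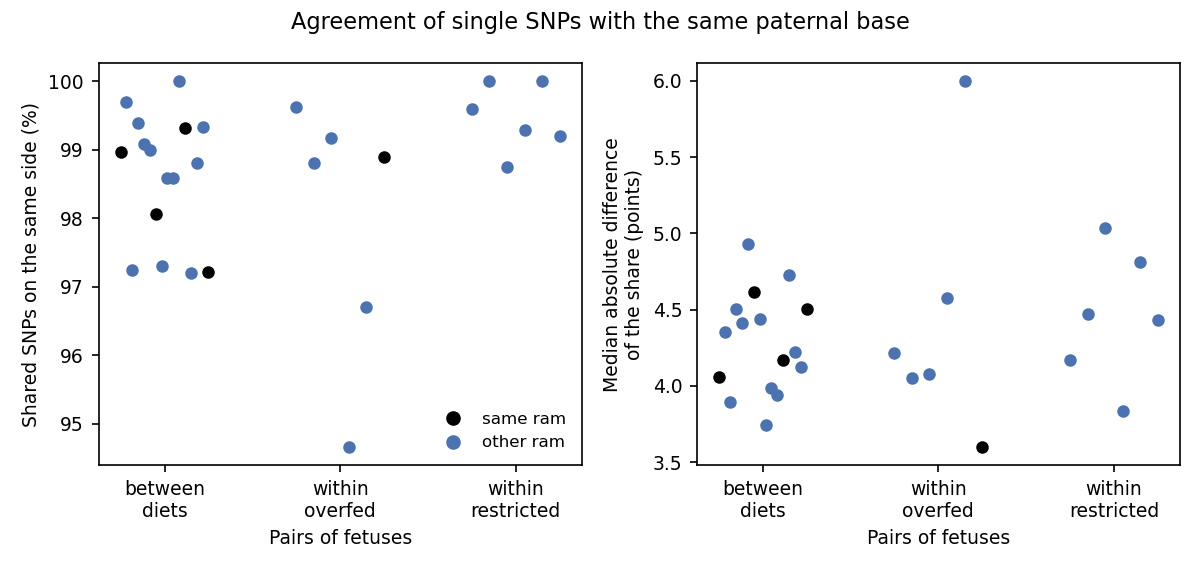
Percent of shared SNPs on the same parental side (left) and median absolute difference in paternal share in percentage points (right) for pairs of fetal lungs, with 1 point per pair, black where both fetuses had the same ram. The 16 pairs across diets, at 97.2% to 100% on the same side, fall within the range of the pairs within a diet.

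SNPs listed in at least 2 fetuses of each diet with the same paternal base were tested with limma on the logit of the share, a natural log of paternal to maternal reads. None of 291 SNPs was called at an adjusted p under 0.05 (0% called), the smallest adjusted p was 0.660, and 13 had an unadjusted p under 0.05, which is 4.47% of those tested. The mean share differed by at most 5 points at 224 SNPs and by more than 20 points at 0 SNPs, where the filter holds a SNP on the same side to shares within 30 points of each other. All 291 had both diet means on the same side of 50%, and 289 lay on 1 side in every listing fetus. The median half-width of the unadjusted 95% confidence interval was 0.58 natural-log units. Of the 291 SNPs, 223 were heterozygous in 10 or more of the 15 fetuses and 72 in all 15.

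The exceptions within these SNPs did not follow diet. NBR1, a receptor that delivers cargo to autophagosomes, had paternal shares at G42578840T of 85.2%, 19.02%, 19.2% and 29.6% in overfed fetuses 1 to 4 and of 19.8%, 93.5% and 26.1% in restricted fetuses 1 to 3. One fetus of each diet lay on the paternal side and the other 5 on the maternal side. At A46756300T in LOC101109636 overfed fetus 2 had a share of 70.4%, while overfed fetuses 3 and 4 had 5.80% and 22.5% and restricted fetuses 3 and 4 had 16.4% and 20.0%.

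The SNP with the lowest p lay in TP53BP1, a DNA damage response protein. At C54054338T on chromosome 18 the paternal share was 29.0% and 24.1% in overfed fetuses 1 and 2 and 10.98% and 9.21% in restricted fetuses 1 and 2, with 20.8% to 26.98% in 2 controls. The diets did not overlap, which held for 54 of 291 SNPs (18.6%), and the logit difference of 1.10 ± 0.24 (SE) had an adjusted p of 0.660. SMAD3, which carries transforming growth factor beta signals to the nucleus, had shares at C13793812T of 76.5% and 81.3% in overfed fetuses 2 and 4 and of 89.7% and 92.3% in restricted fetuses 2 and 4 (adjusted p = 0.660). Both SNPs stayed on their parental side in every fetus.

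Of the 21 SNPs listed in all 8 fetuses, 2 had paternal shares that did not overlap between the diets (9.52%). PRKCSH, the beta subunit of the glucosidase II of the endoplasmic reticulum, had shares at G13421427A of 20.2%, 24.6%, 23.4% and 24.2% in the overfed and of 20.2%, 10.7%, 19.5% and 16% in the restricted fetuses. The lowest overfed and the highest restricted fetus, both of ram 1, were 0.022 points apart. Once 0.5 reads were added to each parent for the tested logit, their order turned, so the diets overlapped on that measure. Controls of PRKCSH reached from 5.63% to 23.5% (limma adjusted p = 0.927). KLHDC2, a substrate receptor of a ubiquitin ligase, had shares at G39840542A of 76.3%, 78.3%, 74.6% and 89.3% against 73.8%, 73.3%, 73.1% and 74.3%, and was named after its values were seen (limma adjusted p = 0.927). PRKCSH was on the maternal side and KLHDC2 on the paternal side in all 8 lungs.

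The remaining SNPs among the 10 with the lowest p were also on 1 side throughout. PLCG1, a phospholipase downstream of growth factor receptors, had shares at G69299019T of 29.1%, 11.3% and 21.2% in overfed fetuses 1, 2 and 4 and of 6.45% and 10.3% in restricted fetuses 1 and 2. MAP2K7, a kinase that activates JNK, had 29.2% and 24% against 15.8% and 14.3% at G14285627C in fetuses 1 and 2 of each diet. DMPK, the kinase of the myotonic dystrophy locus, had overlapping shares of 3.12% to 13.95% in 3 overfed and 13.5% to 22.6% in 4 restricted fetuses at C52288953A. The SNPs in ARL2BP, LOC106990117 and LOC101107891 had mean shares 10.3 to 11.5 points apart and adjusted p of 0.927.

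Genes known as imprinted in mammals were then read from 2 lists. Of 22 genes listed as paternally expressed, 8 were informative in these fetuses, 3 had a listed SNP and 1 could be tested. Of 36 listed as maternally expressed, 26 were informative, 12 had a listed SNP and 2 could be tested. None was called for share or for reads, against 0% called over all 336 genes tested.

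PEG3 encodes a zinc finger protein that is transcribed from the paternal copy in sheep and other mammals. Its paternal share was 86.9%, 78.9% and 89.0% in overfed fetuses 2 to 4 and 86.8%, 88.0%, 94.2% and 85.6% in restricted fetuses 1 to 4. All 7 lungs were on the paternal side and the diets overlapped. The means were 84.9% ± 5.30 (SD, n = 3) and 88.6% ± 3.81 (SD, n = 4), and the logit difference of -0.33 ± 0.28 (SE) had an adjusted p of 0.857. At a single SNP listed in 5 of these lungs, G60912163A, overfed fetus 2 had 89.1% and the restricted fetuses 87.7%, 88.0%, 90.3% and 91.7%.

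GRB10 encodes an adaptor that dampens signalling from the insulin and IGF1 receptors and is expressed from the maternal copy in most mouse tissues. Its paternal share was 20.9%, 21.1%, 28.6% and 21.9% in overfed and 14.5%, 24.4%, 18.8% and 20.0% in restricted fetuses. All 8 lungs, and each single GRB10 SNP listed in them, lay on the maternal side, with single-SNP shares from 9.43% to 28.9%. The gene means of 23.1% ± 3.66 and 19.4% ± 4.08 (SD, n = 4 each) overlapped (logit difference 0.22 ± 0.18, SE; adjusted p = 0.857). Within rams the overfed share was higher by 6.34 points for ram 1, 2.38 for ram 3 and 5.26 for ram 4. For rams 1 and 4, however, no listed GRB10 SNP was shared between the diets, so these differences compare different SNPs. At A5265285G, the SNP shared for ram 3, the share was 23.9% in overfed fetus 2 and 19.2% in restricted fetus 3.

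IGF2R, the receptor that clears IGF2 from the cell surface and is maternally expressed in mouse, was listed in 1 fetus of each diet, both of ram 4. Its share was 9.69% of 965 reads in overfed fetus 4 (95% Wilson interval 8.03% to 11.8%) and 7.16% of 244.5 reads in restricted fetus 4 (4.72% to 11.4%). The intervals overlap and cover counting error only. These fetuses shared no listed IGF2R SNP, since C82872821T and G82855442A were listed in the first and T82850981G and T82858083C in the second.

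Of the 12 listed genes of the maternal list, 8 were below 50% in every listing fetus and 4 were above. PON3, a paraoxonase placed in this list from work in mouse, was above, with 75.6% and 73.1% in overfed fetuses 1 and 2 and 74.1% and 78.0% in restricted fetuses 1 and 3 over 9 to 15 SNPs per fetus (adjusted p = 0.969). The father had given the alternative base at each of these SNPs. TSSC4, CARS and BLCAP were above in 1 fetus each, at 73.1%, 71.6% and 84.8%, all overfed. KCNQ1, UBE3A, PPP1R9A, COPG2 and OSBPL5, as well as ZFAT, were below. Of these, KCNQ1, UBE3A, COPG2 and OSBPL5 were each listed at 1 SNP in 1 fetus, with 21 to 54 reads. ZFAT in overfed fetus 1, at 42.1% over 3 SNPs, had a SNP on the paternal side, C20170803T at 79.6%. The maternal side was also the more common one over all genes, with 591 of the 960 SNPs on the same side in both diets. Whether 8 of 12 exceeds this was not tested. In the paternal list DHCR7 was at 19.05% in overfed fetus 1, and IMPACT was at 20.0% in overfed fetus 1 and 81.2% in restricted fetus 4. Apart from PEG3, no listed gene of the paternal list was thus above 50% in every fetus that listed it.

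Outside the imprinted lists, the IGF1 receptor gene IGF1R had shares of 29.2%, 9.26% and 16.4% in overfed fetuses 1, 2 and 4 and of 20.0%, 15.4% and 76.5% in restricted fetuses 1, 2 and 4. Only restricted fetus 4 was on the paternal side, at G6969167A, while the other 5 lungs listed G7211415T, and controls reached from 10.8% to 50.4% (adjusted p = 0.857). In the matrix list ELN, which encodes elastin, had 19.7%, 21.4% and 24.7% against 17.7%, 17.8%, 20.9% and 23.5%. LTBP2, a microfibril protein, had 84.5%, 86.3%, 86.2% and 86.0% against 85.5%, 88.5% and 90.2%. Both kept to 1 side and their diets overlapped.

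Among the other tested list genes, the epithelial SLC34A2 had shares of 80.6% and 71.4% against 82.8% and 71.4%. Endothelial phosphatase PTPRB had 95.5% and 84.8% against 95.7% and 73.1%. The histone methyltransferase genes EZH2 and SETDB1 and the S-adenosylmethionine synthase gene MAT2A stayed on the maternal side in every listing lung, at 4.69% to 26%. SGK1, a kinase induced by glucocorticoids, was maternal at 12.9% to 21.1%, and the heat shock gene HSPA1A paternal at 84.0% to 89.1%. The interferon-induced OAS1 was paternal at 83.8% to 94.5%. The major histocompatibility class I gene OLA-I had 83.1%, 84.7%, 86.4% and 83.8% in overfed and 77.3%, 74.3% and 80.9% in restricted fetuses, without overlap (adjusted p = 0.884). Diets that do not overlap were seen in 64 of all 336 genes (19%), controls of OLA-I spanned 28.3% to 83.7%, and OLA-I and HSPA1A belong to families of near-identical copies, so their reads are uncertain.

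In total, the 12 lists held 233 genes, of which 182 were informative, 71 had a listed SNP and 16 could be tested. None of the 27 energy sensing and lipid genes could be tested. In that list TSC2, an inhibitor of the mTOR pathway, was maternal at 15.7% in overfed fetus 2 and at 17.8% and 13.95% in restricted fetuses 1 and 3, and SREBF1, a regulator of lipid synthesis, was maternal at 21.4% in overfed fetus 4 and 19.05% in restricted fetus 2 but paternal at 78.4% in restricted fetus 3. In the matrix list 17 of 33 genes were listed, of which 6 were above 50% in every listing fetus, 7 below and 4 on both sides.

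**Figure D3:**
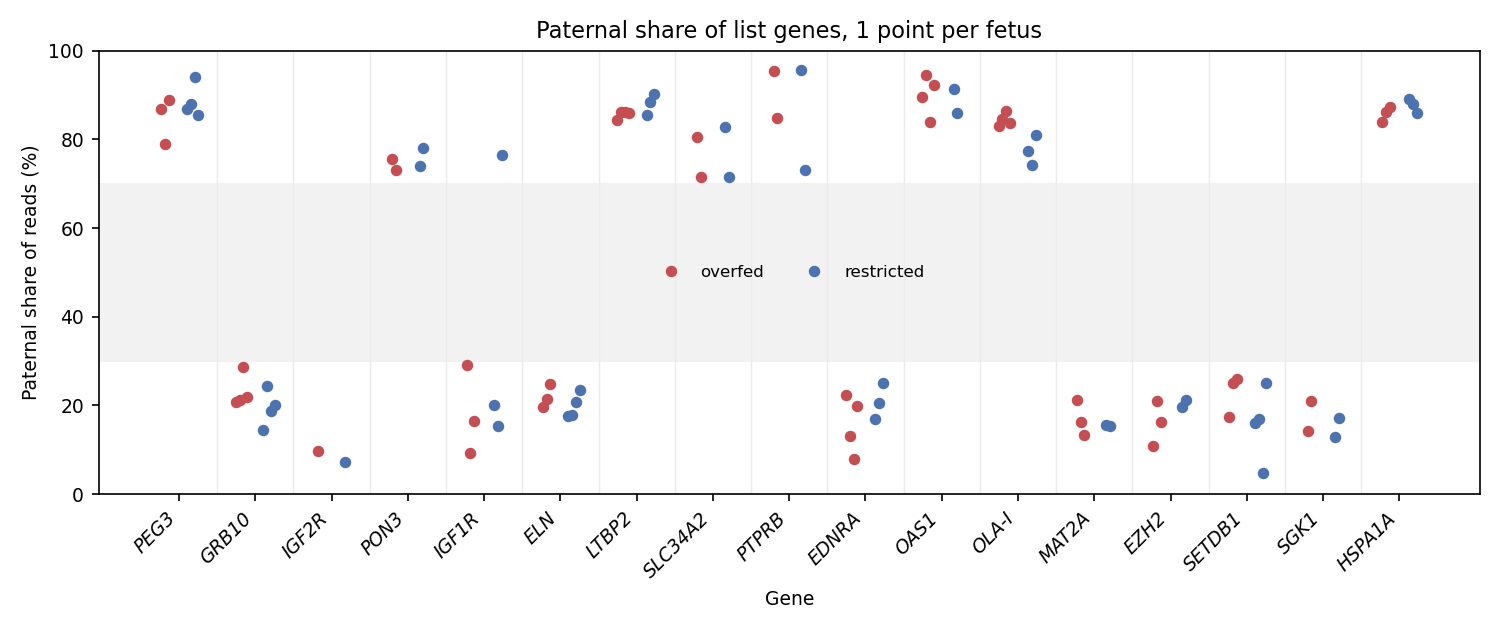
Paternal share of reads in percent for 17 genes of the lists, with 1 point per fetal lung and gene, overfed in red and restricted in blue, and a grey band over 30% to 70%, where no single SNP was listed. PEG3 and LTBP2 are paternal and GRB10 and ELN maternal in both diets, and 1 restricted fetus is apart from the others for IGF1R.

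Shares summed over all listed SNPs of a gene varied more than shares at single SNPs. Of 336 genes with values in at least 2 fetuses of each diet, limma called 0 (0% called), 15 had an unadjusted p under 0.05 (4.46%), 7 higher and 8 lower in overfed, and the smallest adjusted p was 0.470. An edgeR quasi-likelihood test on the same reads also called 0, with 8 unadjusted p under 0.05. An exact permutation test of the 32 genes listed in all 8 lungs gave 0 unadjusted p under 0.05. Its smallest possible p of 0.0286 is too large for any 1 gene alone to be called after adjustment over 32, so its 0 calls carry no information. The mean shares of 46 genes were more than 20 points apart, and 42 of these 46 had different sets of listed SNPs in the diets (91.3%), against 133 of the other 290 genes (45.9%). At single SNPs 0 of 291 were that far apart.

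**Figure D4:**
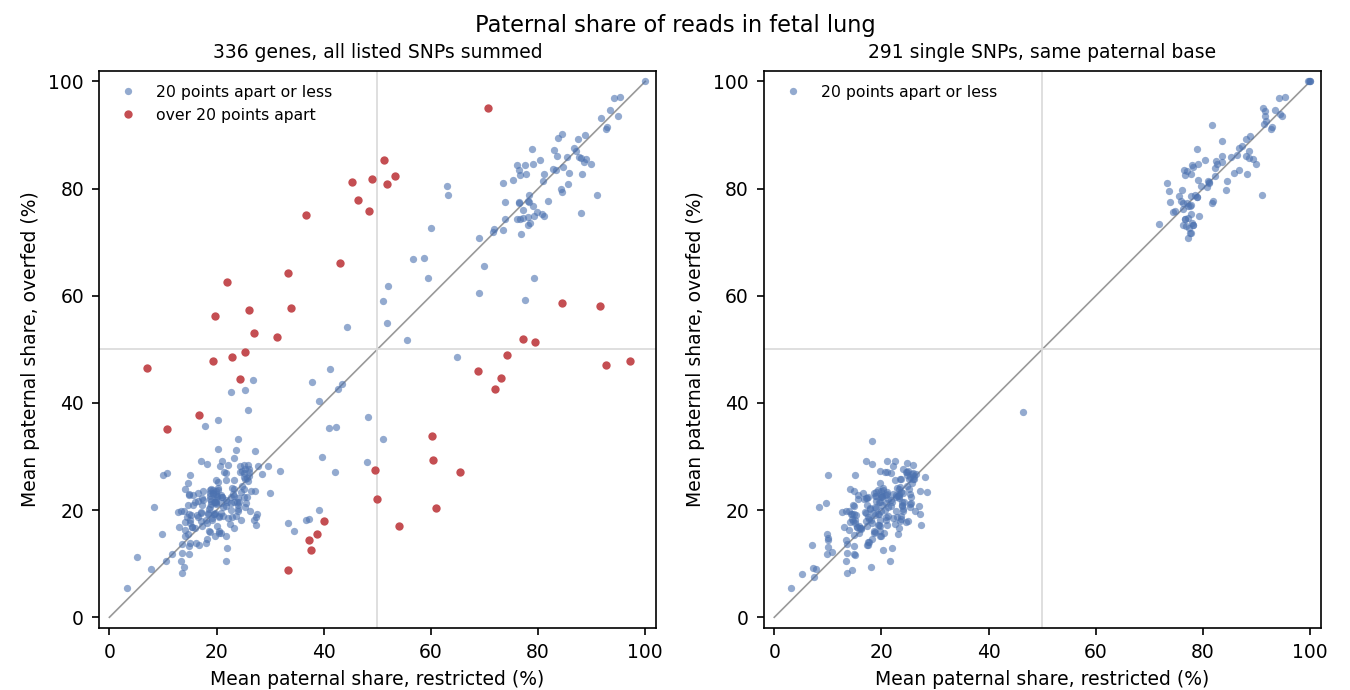
Mean paternal share in percent of restricted lungs (horizontal) against overfed lungs (vertical), for 336 genes with all listed SNPs summed (left) and 291 single SNPs with the same paternal base (right), with red points more than 20 points apart. In the left panel 46 genes are red, and in the right panel no SNP is. The maternal and the paternal cluster in the right panel follow from the filter, which lists no single-SNP share between 30% and 70%.

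GOLGA3, which encodes a protein of the Golgi, had the lowest p of the genes. Its share was 69.6% and 25.9% in overfed fetuses 1 and 2 and 98.5%, 100% and 93.0% in restricted fetuses 2 to 4, with a logit difference of -3.46 ± 0.68 (SE) and an adjusted p of 0.470. The overfed fetuses listed G44008446A on the maternal side, and the restricted fetuses did not list it. The SNP in common, C44020373T, was paternal in all that listed it, at 96.1% in overfed fetus 1 and at 93.0% to 100% in the restricted fetuses. The 4 control lungs with GOLGA3 listed were between 9.76% and 25.3%.

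The same held for LTA4H, the enzyme that makes leukotriene B4. Its gene share was 49.3%, 47.9%, 49.1% and 49.7% in overfed fetuses and 58.6%, 75.8% and 88.2% in restricted fetuses 1 to 3, and the diets did not overlap (adjusted p = 0.857). It was the sum of a paternal and a maternal SNP. A165130249G was paternal in all 7 lungs, at 77.2% to 88.9% in overfed and 75.8% to 88.2% in restricted fetuses. C165127702T was maternal in the 5 lungs that listed it, the 4 overfed at 17.5% to 27.6% and restricted fetus 1 at 18.8%. The 2 restricted fetuses that did not list it had the highest gene shares, and restricted fetus 1, which listed both SNPs, was still above the overfed lungs.

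LOC101108865 had gene shares of 50.9% to 67.3% in 4 overfed and of 94.2% and 88.9% in 2 restricted lungs. At G57264902T, its 1 SNP in both diets, the shares were 95.1%, 96.6% and 91.7% against 94.2% and 88.9%, all paternal, and over the shared SNP the logit difference was 0.38 in place of -1.95. PODXL, a sialomucin of epithelial and endothelial surfaces, had gene shares of 27.8% and 26.2% against 54.7% and 76.2%. Its shared SNP T95222092C was maternal in both diets, at 26.2% in overfed fetus 3 and at 26.4% and 22.9% in restricted fetuses 1 and 4. For WWP1, a ubiquitin ligase, the shared SNPs T88717235C and T88717241C were maternal in overfed fetus 4 and in both restricted fetuses, at 7.14% to 16.7%, while 4 other SNPs, listed in overfed fetuses, were paternal. Restricted fetus 1 also listed a paternal SNP of its own, T88708008A, at 78.0%.

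MRCL3, a myosin regulatory light chain with near-identical paralogs, had shares of 93.7%, 24.3% and 22.99% in overfed fetuses 1 to 3 and of 94.4%, 96.0% and 87.5% in restricted fetuses 2 to 4. G37702374A was paternal wherever listed, at 93.7% in overfed fetus 1 and 94.4% to 97.7% in the restricted fetuses. Overfed fetuses 2 and 3 listed other SNPs, which were maternal, as was 1 of these in restricted fetus 4 at 12.3%. Without overfed fetus 1, MRCL3 became the 1 gene called for share (logit difference -3.78, adjusted p = 0.00457), and without restricted fetus 4 the 1 call was AKR1E2 (adjusted p = 0.0321), named after its values were seen.

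Switches of side at the same SNP and base were few. They were seen at 32 of the 992 SNPs, in 25 genes, and 24 of the 32 were listed in only 1 fetus of each diet. ITIH5, which encodes a hyaluronan-binding matrix protein, held 4 of them. At A11665878G and C11666303T it had 18.4% and 28.2% in overfed fetus 1 and 71.2% and 74.6% in restricted fetus 3, at T11666051G 29.9% in overfed fetus 1 and 72.4% in restricted fetus 4, and at A11666672G 23.7% in overfed fetus 2 and 76.2% in restricted fetus 3. Overfed fetus 4, however, was paternal at another ITIH5 SNP, A11663137G, at 84.1%. With gene sums restricted to SNPs listed in both diets, ITIH5 was the 1 gene called (logit difference -2.08, adjusted p = 0.0141), where the smallest adjusted p ranged from 0.00457 to 0.863 over all settings. Its shares came from 2 fetuses per diet.

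GRP, the gastrin-releasing peptide of pulmonary neuroendocrine cells, switched within a diet. At A58405141G overfed fetus 1 had a paternal share of 7.65%, overfed fetus 4 one of 95.3% and restricted fetus 1 one of 28.1%, with the alternative base from the father in each. GOLIM4, a Golgi membrane protein, was paternal at 3 neighbouring SNPs in 1 overfed fetus, at 79.5% to 82.4%. In restricted fetuses these SNPs were maternal, with means per SNP of 13.7% to 14.9% over 1 or 2 fetuses. No switched SNP was listed in more than 2 fetuses of a diet, and diet cannot be told apart from fetus at the 24 listed in 1 fetus of each.

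The level of expression could be read only as reads per listed SNP, scaled between libraries by the median ratio over widely listed genes, so the values are relative reads and not whole-gene expression. In bulk lung, fewer cells of a type and less RNA per cell cannot be told apart. None of 336 genes was called by limma (0% called), 16 had an unadjusted p under 0.05 (4.76%) and the smallest adjusted p was 0.484; edgeR called 0 of the 32 genes listed in all 8 lungs, with 1 unadjusted p under 0.05. None of 292 single SNPs was called (0% called), with 10 unadjusted p under 0.05 (3.42%) and a smallest adjusted p of 0.485. Without scaling the median gene was 0.36 log2 units higher in overfed lungs, and 265 of 336 genes were higher against 169 with scaling, so each log2 difference is relative to the typical gene.

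EDNRA, the endothelin receptor through which endothelin constricts pulmonary vessels, had the lowest p. Its scaled reads per listed SNP were 43.8, 33.9, 36.4 and 37.2 in overfed fetuses 1 to 4 and 60.4, 54.5 and 71.4 in restricted fetuses 2 to 4. The 3 restricted lungs were above the 4 overfed lungs, and the 6 controls listing the gene, at 51.6 to 71.5, were also above them. The means of 37.8 ± 4.23 (SD, n = 4) and 62.1 ± 8.58 (SD, n = 3) gave a log2 difference of -0.70 ± 0.17 (SE), an unadjusted limma p of 0.00144 and an adjusted p of 0.484, so EDNRA was not called. Diets that do not overlap were seen in 50 of 336 genes (14.9%). Without scaling its log2 difference was -0.28, which is 0.65 below the median gene, against 0.70 below it with scaling. By ram, the overfed value was 20.6 scaled reads lower for ram 3 and 34.6 lower for ram 4. The ram 3 value compares different SNPs, C10472040G in overfed fetus 2 and C10412447A in restricted fetus 3. The fetuses of ram 4 all listed C10412447A.

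A floor affects such values, because a SNP needs 20.5 reads to be listed. On the scaled axis this floor was 9.30 reads in overfed fetus 1 and 14.98 to 30.4 in the others. Scaled values below about 30 could therefore be listed in some lungs and not in others.

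The SNP C10412447A carried most of the EDNRA values and was heterozygous in all 15 fetuses. Its scaled reads were 43.6, 38.4 and 37.1 in overfed fetuses 1, 3 and 4 and 59.5, 56.8 and 77.1 in restricted fetuses 2 to 4 (log2 difference -0.68 ± 0.17, SE; adjusted p = 0.485). The paternal share of the gene stayed maternal throughout, at 8.0% to 22.3% in overfed and 16.9% to 25% in restricted lungs.

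HNRNPM, a splicing regulator, was the SNP-level case with data in every lung. At A14723385C on chromosome 5 the scaled reads were 232, 215, 173 and 198 in overfed and 156, 157, 137 and 147 in restricted fetuses. Each overfed lung was above each restricted lung, and 6 controls lay at 150 to 181, overlapping both diets. The log2 difference was 0.45 ± 0.13 (SE), a ratio of 1.36, with an unadjusted limma p of 0.00425 and an adjusted p of 0.485. The value at A14723385C was higher by 76.0, 78.3 and 38.4 scaled reads in overfed fetuses of rams 1, 3 and 4. A second HNRNPM SNP, G14721816T, did not separate the diets. Its reads before scaling were 44.5, 20.5 and 53 in overfed fetuses 2 to 4 and 34.5 and 55 in restricted fetuses 1 and 2. Both SNPs were heterozygous in all 15 fetuses. Among the 21 SNPs listed in all 8 lungs, 2 did not overlap between diets (9.52%), and the other was in CAPNS1, the small subunit of calpains, with 87.5 to 117.9 against 77.1 to 84.6 scaled reads (named after its values were seen).

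The heat shock gene HSPA1A had scaled reads of 683, 436 and 441 in overfed fetuses 1, 3 and 4 and of 265, 103 and 474 in restricted fetuses 1 to 3. The diets overlapped at restricted fetus 3, and the log2 difference was 1.11 ± 0.48 (SE; adjusted p = 0.869). Without overfed fetus 1 the HSPA1A log2 difference was 0.90 (adjusted p = 0.843). At its SNP T26573663C, 464 and 440 stood against 266 and 101, with controls at 274 and 344. SGK1 had 23.4 and 23.2 scaled reads in overfed fetuses 2 and 4 and 29.9 and 44.3 in restricted fetuses 1 and 2 at its single SNP C59256466T (log2 difference -0.62 ± 0.25, SE; adjusted p = 0.869). The SGK1 value of overfed fetus 2 lies close to the lowest value its list can hold, 22.7 scaled reads, while that of overfed fetus 4 lies above its own of 16.8. Both genes rest on 2 or 3 fetuses per diet.

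Other low p values for reads were found at genes that were likewise listed in part of the lungs or rest on several SNPs. GRP had 36.2 and 17.3 scaled reads per SNP in overfed and 77.8 and 59.7 in restricted fetuses (log2 difference -1.41 ± 0.40, SE; adjusted p = 0.869). F2RL2, a thrombin receptor of the protease-activated family, had 73.0 and 131 against 53.5, 63.4 and 37.8. The histocompatibility class II gene DQA had 16.7, 45.4 and 42.0 against 77.9 and 61.2, and it belongs to a family whose copies share reads. ITIH5 had 25.9, 37.0 and 17.9 against 48.4 and 43.3, a direction that turned without scaling (log2 difference 0.19). GPAA1, which attaches lipid anchors to proteins, had 31.3 to 46.7 in 4 overfed lungs and 57.8 and 52.2 in 2 restricted lungs. EIF2B4, a subunit of a translation initiation factor, had 38.5 to 47.2 against 24.6, 27.5 and 39.0, and FAM65C 42.7 to 60.8 against 18.4 and 35.3. MRCL3 had 415, 75.5 and 62.98 against 443, 468 and 252, where the high values are those with G37702374A listed. No gene of these was called, but MRCL3 was called with a block for ram over the 8 lungs (log2 difference -2.30, limma adjusted p = 1.77e-07) and without overfed fetus 1 (adjusted p = 0.00275).

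At single SNPs, EMG1, a methyltransferase of ribosome assembly, had 32.8, 30.9 and 30.5 against 19.8 and 20.98 scaled reads at C207215547A, and MGME1, a mitochondrial exonuclease, 33.7 and 26.9 against 20.8 and 18.1 at G37325473A. CLK2, a kinase of splicing factors, had 70.5 to 104 against 61.1 to 73.0 at C103900004G. UBB, a polyubiquitin gene with near-identical repeats, had 865 to 1310 against 657 to 966 at A32765920G. In the latter pair the diets overlapped and in the former pair they did not, which was so for 45 of 292 SNPs (15.4%). The SNPs in GTPBP2 and LOC105602050 were also among the 10 with the lowest p, with ratios of overfed to restricted of 0.696 and 1.34.

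**Figure D5:**
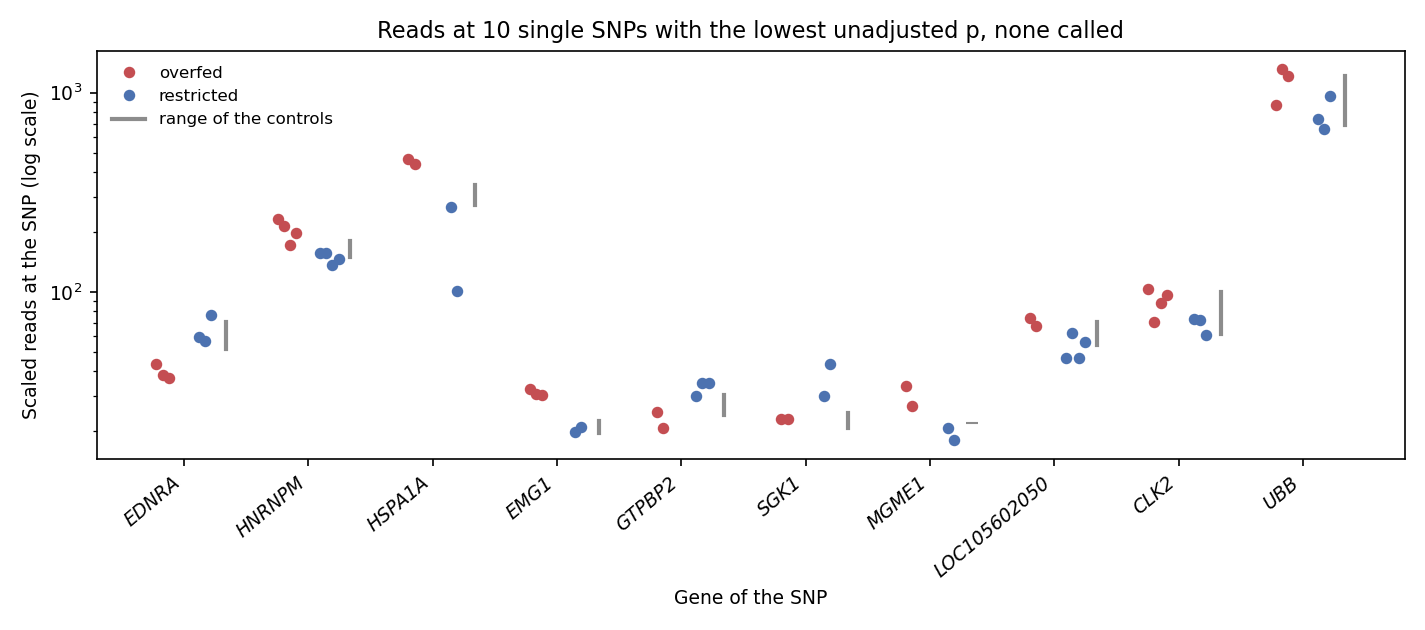
Scaled reads at the 10 SNPs with the lowest unadjusted p for reads (log axis), with 1 point per fetal lung, overfed in red and restricted in blue, and a grey bar for the range of the controls. EDNRA is lower and HNRNPM higher in each listing overfed lung than in each listing restricted lung, and no SNP was called after adjustment.

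Finally, genes with listed SNPs in 1 diet alone were counted. Of 4513 genes informative in at least 3 fetuses of each diet, 2026 were listed in 1 or more of the 8 lungs. Of the 4513, 23 (0.510%) were listed in at least 3 overfed and no restricted fetuses, and 7 (0.155%) the other way round. More SNPs were listed in overfed lungs as a whole, and the part of read depth in these counts was not tested.

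LYVE1, the hyaluronan receptor of lymphatic endothelium, led with 12, 1 and 16 listed SNPs in overfed fetuses 2, 3 and 4. Its paternal share was 76.2% in overfed fetus 2 but 27.5% and 24.4% in overfed fetuses 3 and 4, so the favoured parent differed within the diet. At A41588825G, with the alternative base from the father in both, overfed fetus 2 had 73.1% and overfed fetus 4 had 24.6%. LYVE1 was also listed in 3 of 7 controls. IGSF5, an immunoglobulin family member of cell junctions, and SREK1IP1 were the 2 genes listed in all 4 overfed lungs and in no restricted lung. IGSF5 had shares of 30.2%, 27.9%, 7.55% and 82.5%, and SREK1IP1 of 77.1%, 73.4%, 72.5% and 77.3%, with 22 to 48 reads at 1 SNP per fetus.

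HAX1, a mitochondrial protein that counters apoptosis, had paternal shares of 77.2%, 88.4% and 76.2% in overfed fetuses 1, 2 and 4 and was listed in 0 of 7 controls. Overfed fetuses 2 and 4 listed only the adjacent SNPs G103021297A and T103021298C, which were heterozygous in all 15 fetuses. Each had 21.5 reads in overfed fetus 2 and 21 in overfed fetus 4, close to the floor of 20.5. Overfed fetus 1 also listed G103021313A on the maternal side, at 20.5%. SUSD4, a complement regulator, was maternal at 25.4%, 29.0% and 20.7%, and TRAF1, an adaptor of tumour necrosis factor receptors, paternal at 88.7%, 71.4% and 75.1%. PPP1R16B was paternal at 89.7%, 90.5% and 74.6%. ZNF568, CHD1L, FAM3C and LOC105601865 had fetuses on both sides of 50%. The 7 genes listed in restricted lungs alone were LOC101114226, RNF144B, ABCC5, ABI3BP, KIAA0100, RIT1 and U2AF1L4. RNF144B, a ubiquitin ligase, was paternal at 77.3%, 77.4% and 90.7% in restricted fetuses 2 to 4, and U2AF1L4, a splicing factor subunit, maternal at 26.4%, 28.0% and 28.6% in restricted fetuses 1 to 3. The other 5 had fetuses on both sides. Gene shares lay on 1 side in every listing lung for 10 of the 23 overfed genes, 8 paternal and 2 maternal, and for 2 of the 7 restricted genes. The 10 overfed genes had 20.8 to 255 reads per SNP. ABHD14B, named after its values were seen, was paternal at 80.6%, 75.6% and 73.9% in overfed fetuses 1, 2 and 4 on 59.5 to 162 reads at 1 SNP each, and was listed in 0 of 7 controls.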

How the data were processed

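Lung RNA of 15 fetuses was compared through the deposited lists, in which the authors give estimated counts of reads per parental allele at SNPs, averaged over alignments to a reference and an alternative genome per the labels; 66.4% of the 9563 entries of the 8 lungs were not whole numbers. Libraries were poly-A selected and sequenced on an Illumina NextSeq per the labels' protocols. Per the submitters' processing notes, the tools named are SAMtools, Picard, HISAT2 2.0.5 and Trimmomatic 0.33, with no role given. Caller and build: not given in the sources used here. The deposited ram lists gave the informative SNPs of each fetus, as genotypes.

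Autosomal SNPs were used. Reads were summed per gene, and the empirical logit, ln((paternal + 0.5) / (maternal + 0.5)), was tested with limma 3.58.1 in R 4.3.3 over all lung libraries, with control littermates of 1 ewe averaged first, which left 4 ewes per diet, for features with values in at least 2 fetuses of each diet. A fetus that did not list a feature was left out of its fit. Reads per SNP were tested as log2 of reads plus 1 after median-ratio scaling. Calls needed a Benjamini-Hochberg adjusted p under 0.05 over all features of a test. Single library values used two-sided exact permutation tests. edgeR 4.0.16 on rounded reads was an alternative. The tests were run on simulated data first. Named were the 10 features with the lowest p of each test, tested list genes, and genes listed in 1 diet alone. The members, lists and rules were chosen with earlier results of these data known. One gene that the naming rule selected is not reported here. Fetuses are separate animals with separate ewes, but the sequencing run of a library is not labelled, so run and diet cannot be told apart. Wilson intervals cover counting error only, while the limma confidence intervals were built from the SE of the fit.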

Additional observations from a re-analysis of the deposited data

Results flagged for a closer look

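Of 40 groups of 4 fetuses examined, 4 held a value whose gap to its nearest neighbour, as a part of the group's range, was over Dixon's 95% critical value of 0.829, and chance flags about 1 in 20 such groups. The percent of listed SNPs on the paternal side was 51.9 in overfed fetus 4, against 43.97 to 44.9 in the other overfed lungs. The GRB10 paternal share was 28.6% in overfed fetus 3, from a single SNP with 35 reads, against 20.9% to 21.9% in the other 3. The LTBP2 paternal share was 84.5% in overfed fetus 1, against 86.0% to 86.3% in the others. The scaled reads per ELN SNP were 69.6 in restricted fetus 4, against 85.6 to 88.0 in the other restricted lungs.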

How the results depend on the processing

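The tests of single SNPs gave 0 calls for share in all 17 settings and 0 calls for reads in all 18, and the gene tests 0 calls in 18 of 21 and 16 of 19 settings. The settings for share per gene include the exact permutation test, where no gene alone could be called. With only SNPs listed in both diets, 1 gene was called for share (ITIH5). Leaving out 1 fetus at a time gave 0 to 1 calls for share per gene and 0 to 1 for reads per gene, the latter MRCL3 without overfed fetus 1 (adjusted p = 0.00275), and 0 to 0 for single SNPs. It moved the difference in percent listed between 0.182 and 1.17 points, in lung against other tissues between 0.234 and 1.18, in the paternal side between -1.14 and 3.78, and in median reads between -0.917 and 4.25, with no exact permutation p below 0.143. The paternal-side difference, 0.839 points, was -1.33 without SNPs heterozygous in 10 or more fetuses, -0.417 at 30 or more reads and -2.36 with the X chromosome included. With a block for ram, 4 genes were called for reads (MRCL3, SMAGP, H3F3B and MAGI3) of 211 tested. The replicate numbers do not pair the fetuses, as the deviations of same-numbered fetuses correlated at -0.488 to 0.220 for SNP shares. A replicate block gave 2 calls for reads per gene (MRCL3 and H3F3B) of 233 and 0 in the other 3 tests, and the paired sign-flip tests of the library values gave exact p of 0.375 to 0.75, where 0.125 is the smallest possible. The cause of these changes was not tested. Of 971 values of named features under alternatives, 940 kept direction and side of the threshold, 27 turned direction without passing it, 4, all MRCL3, passed it and 0 reversed a call. Few features could be compared over all lungs, since 32 genes and 21 SNPs were listed in all 8.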
